A study of Mus musculus with 8 samples.

Results

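The 10 genes described here carry the Wnt/beta-catenin signal: the ligands Wnt3 and Wnt8a, the feedback inhibitors Axin2, Nkd1 and Notum, the response factor Sp5, and the DNA-binding factors Lef1, Tcf7, Tcf7l1 and Tcf7l2. A region belonged to a gene when the deposited table named that gene as the nearest and put the region at most 100 kb from its transcription start site (TSS). This gave 132 of 112137 regions, from 29 at Tcf7l1 to 1 at Sp5. A further 5 regions of Sp5 and Lef1 lay farther away and were not used.

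H3K27ac, the acetyl mark that histone H3 carries at lysine 27 on active promoters and enhancers, was measured in mouse embryonic stem cells by CUT&Tag, in which an antibody guides a transposase to marked chromatin. There were 4 groups of 2 libraries. Formative DKO cells lacked MLL3 and MLL4 and were taken 63 hours after LIF2i was withdrawn, and formative WT cells were wild-type cells at the same time. Naive DKO and naive WT cells had no withdrawal in their labels. The WT cells were the R1 line, the line behind the DKO cells is not named, and the series design gives replicates as independent cultures. Kmt2c and Kmt2d encode MLL3 and MLL4, which methylate histone H3 at lysine 4 on enhancers. The design asks how enhancer marks and transcription differ without them before and after exit from the naive state. Each level is the authors' pooled value of a group, log2(value + 1), so no level carries an SD or n and depth is unknown. Levels also depend on region width and were compared only within a region. H3K4me1, the monomethyl mark these enzymes deposit, and RNA were deposited in the same table from libraries outside these samples. The RNA columns add the genotypes CKO, a code not spelled out in the sources used here, and dCD, a catalytic-dead form.

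Wnt ligands bind Frizzled receptors and LRP co-receptors and so stop the Axin and GSK3 destruction complex from degrading beta-catenin, which then binds TCF/LEF factors on DNA. LIF2i medium contains a GSK3 inhibitor, which replaces a Wnt signal in naive cells. In mouse embryonic stem cells Tcf7l1 is best known as a repressor of pluripotency genes that beta-catenin relieves. Wnt3 is known as the ligand needed for the primitive streak of the mouse embryo, and Axin2, Nkd1, Notum and Sp5 are classical genes switched on by the pathway.

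Sequences are shown first, since TCF/LEF factors read the words CTTTGAT and CTTTGAA on either strand. The words differ in their last letter, so that no match counts as both. In the central 300 bases, 14 of the 132 regions held a match, or 10.6%, against 9.93% of 112131 regions in all. For CTTTGAT alone the shares were 5.30% and 4.07%. Over whole regions, leaving out Wnt8a, matches to CTTTGAT numbered 10 in the 29 regions of Tcf7l1, 7 in 15 of Axin2, 6 in 18 of Nkd1, 5 in 14 of Lef1, 4 in 24 of Tcf7l2, 4 in 2 of Notum, 2 in 13 of Wnt3, 1 in 9 of Tcf7 and 0 in the 1 of Sp5. Wider regions hold more matches, and a match is only a run of letters. The windows below come from the GRCm38.p6 genome (mm10) for regions that recur in the results, 5′ to 3′ on the strand of the match. Capitals mark the match at the centre of each window. The Axin2 window that starts at 108921205 also holds a CTTTGAA match, left in lower case.
Wnt3 upstream region, chr11:103772758-103772818, minus strand: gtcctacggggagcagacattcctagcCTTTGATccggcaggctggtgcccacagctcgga
Axin2 start region, chr11:108920400-108920460, plus strand: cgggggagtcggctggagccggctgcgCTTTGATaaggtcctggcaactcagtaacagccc
Axin2 start region, chr11:108921205-108921265, plus strand: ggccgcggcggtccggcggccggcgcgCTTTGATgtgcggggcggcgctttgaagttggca
Nkd1 intron, chr8:88539787-88539847, minus strand: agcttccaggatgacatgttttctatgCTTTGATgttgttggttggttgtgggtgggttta
Nkd1 intron, chr8:88570767-88570827, plus strand: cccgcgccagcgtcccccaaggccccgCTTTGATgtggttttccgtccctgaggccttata
Notum start region, chr11:120661213-120661273, minus strand: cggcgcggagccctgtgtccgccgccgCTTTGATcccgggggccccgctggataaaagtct
Lef1 exon region, chr3:131184306-131184366, minus strand: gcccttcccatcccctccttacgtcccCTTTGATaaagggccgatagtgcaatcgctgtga
Tcf7l2 intron, chr19:55868486-55868546, plus strand: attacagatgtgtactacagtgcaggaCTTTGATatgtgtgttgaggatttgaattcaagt

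RefSeq promoters (GRCm38.p6, 250 bases before to 50 after a start) matched 8 of the genes with 13 windows, leaving out Wnt8a. A match to either word stood in 1 of the 13, that of Sp5, against 8.65% of 32851 RefSeq promoters. Promoters of Wnt3, Axin2 and Tcf7l2 are shown as examples of a ligand, an inhibitor and a factor that an H3K27ac region covers. The Tcf7l1 promoter and 1 of 4 Lef1 windows are covered as well and are not shown. That of Sp5 is shown for its match, although the member region of Sp5 lies 88083 bases upstream of it. Capitals mark the match to CTTTGAT, and the other promoters hold none.
Wnt3, chr11:103773925-103774224, plus strand: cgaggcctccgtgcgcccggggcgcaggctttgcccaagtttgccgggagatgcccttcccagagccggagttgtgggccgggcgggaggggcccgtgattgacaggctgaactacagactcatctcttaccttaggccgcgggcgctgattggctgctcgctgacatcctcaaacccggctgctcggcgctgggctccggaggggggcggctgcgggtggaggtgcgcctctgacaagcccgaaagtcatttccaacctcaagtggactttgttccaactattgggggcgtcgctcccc
Axin2, chr11:108920099-108920398, plus strand: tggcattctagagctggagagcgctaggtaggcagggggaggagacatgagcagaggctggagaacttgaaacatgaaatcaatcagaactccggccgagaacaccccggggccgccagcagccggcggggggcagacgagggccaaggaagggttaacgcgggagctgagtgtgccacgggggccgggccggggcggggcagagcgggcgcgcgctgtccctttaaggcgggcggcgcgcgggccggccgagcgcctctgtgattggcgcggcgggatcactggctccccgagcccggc
Tcf7l2, chr19:55741560-55741859, plus strand: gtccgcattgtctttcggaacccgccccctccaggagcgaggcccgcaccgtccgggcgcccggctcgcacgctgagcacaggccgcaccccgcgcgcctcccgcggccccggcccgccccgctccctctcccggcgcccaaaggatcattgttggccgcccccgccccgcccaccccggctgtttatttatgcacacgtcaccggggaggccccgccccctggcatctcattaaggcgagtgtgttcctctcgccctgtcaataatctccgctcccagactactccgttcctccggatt
Sp5, chr2:70474673-70474972, plus strand: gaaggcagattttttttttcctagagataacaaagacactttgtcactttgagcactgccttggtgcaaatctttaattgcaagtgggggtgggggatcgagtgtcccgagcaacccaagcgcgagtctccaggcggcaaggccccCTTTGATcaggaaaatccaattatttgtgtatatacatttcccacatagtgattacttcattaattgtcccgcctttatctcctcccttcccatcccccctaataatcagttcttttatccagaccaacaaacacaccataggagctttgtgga
G and C made up 65.7% of the Wnt3 promoter, 70.0% of the Axin2 and 70.0% of the Tcf7l2 promoter, and 45.0% of the Sp5 promoter, against a mean of 53.8% over RefSeq promoters.

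The deleted genes and the state of the cells were checked first. The deposited log2 RNA level of Kmt2c was 4.30 in formative DKO against 5.21 in formative WT cells, and 4.46 in naive DKO against 5.61 in naive WT cells. Kmt2d RNA was 4.31 against 5.16 and 4.13 against 4.86 in the same order, and the labels do not name the deleted parts. Of 76 regions of 6 naive pluripotency genes, 47 fell and 4 rose in formative WT cells, and of 32 regions of 5 formative genes 14 rose and 2 fell (DiffBind adjusted p under 0.05, the authors' deposited table). Over all regions 15.8% fell and 20.8% rose. In formative DKO cells RNA of 2 of the 6 naive genes was at least 2-fold higher than in formative WT cells, against 5.87% of all genes. These were Esrrb at 5.64 against 4.62 and Nr0b1 at 3.06 against 0.77. None of the 6 was at least 2-fold lower, against 5.05%. The gene median of H3K27ac was at least 2-fold higher for 2 of the 6 naive genes, Klf4 by 1.22 and Tbx3 by 1.39. The others were Zfp42 at 0.49, Esrrb at 0.52, Tfcp2l1 at -0.46 and Nr0b1 at -0.75. The median was at least 2-fold lower for 3 of the 4 formative genes with a region above 0. Over all genes with such a region 7.54% were higher and 37.4% lower. In RNA none of the 3 formative genes with values was at least 2-fold higher or lower in formative DKO than in formative WT cells. The log2 differences were -0.42 for Fgf5, 0.47 for Pou3f1 and -0.91 for Sall2. RNA of all 3 was higher in formative than in naive DKO cells, by 5.75, 5.19 and 2.85 in the same order. In WT cells it was higher by 6.09, 5.24 and 3.43. These marker differences and the Wnt differences described for formative DKO cells come from the same pooled groups. Any link between them was not tested. Of 6 fibroblast feeder genes 4 had regions, 9 in all, of which 2 rose and 2 fell in formative WT cells by the same test, and 2 had RNA values, which went opposite ways. Col1a2 was 3.00 in formative DKO against 0.98 in formative WT, and -0.20 in naive DKO against -1.59 in naive WT cells. Thy1 was -1.03 against 1.79 and -0.35 against 0.24 in the same order. Their part in the results was not tested. RNA of the core factor Sox2 was 7.82 in formative DKO, 7.01 in formative WT, 7.80 in naive DKO and 7.94 in naive WT cells. Pou5f1 lay between 2.49 and 3.25 in all 8 RNA groups.

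Formative WT cells were compared with naive WT cells by the authors' DiffBind test, the only test with replicates in the table. H3K27ac rose at the ligands, at Nkd1, Lef1 and Tcf7, and at most called regions of Tcf7l2, and fell at Notum and at most called regions of Tcf7l1. In all 51 of the 132 regions rose, against a background of 20.8% of all regions, and 13 fell, against 15.8% (DiffBind adjusted p under 0.05 over all regions, the authors' deposited table). By gene 6 of 13 Wnt3 regions, 3 of 7 Wnt8a, 1 of 15 Axin2, 11 of 18 Nkd1, 12 of 14 Lef1, 4 of 9 Tcf7 and the 1 region of Sp5 rose, and none of these genes had a region that fell. Both Notum regions fell. Tcf7l1 had 3 that rose and 10 that fell among 29, and Tcf7l2 had 10 and 1 among 24. All 12 regions that lie within the Lef1 gene rose and the other 2 were not called. The 4 regions within Tcf7 rose and the 5 outside it were not called.

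In RNA of WT cells, 4 of the 8 genes with values were at least 2-fold higher in the formative state, against 17.1% of 9781 genes, and 1 was at least 2-fold lower, against 9.65%. The RNA values are pooled and carry no test. Wnt3 had a log2 level of 4.96 in formative WT against 0.02 in naive WT cells, and Wnt8a 3.34 against -1.97, the lowest recorded value of any gene being -2.29. Nkd1 was at 1.87 in formative WT against 0.41 in naive WT cells, and Tcf7, a TCF factor that mostly activates, at 4.79 against 3.72. Notum, a secreted enzyme that inactivates Wnt ligands, was at -0.91 against 2.84. Sp5, a repressor of Wnt targets, was at 2.92 against 3.86, while Axin2 and Tcf7l1 differed by 0.40 and 0.02. Lef1 and Tcf7l2 had no RNA value in the table.

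**Figure D1:**
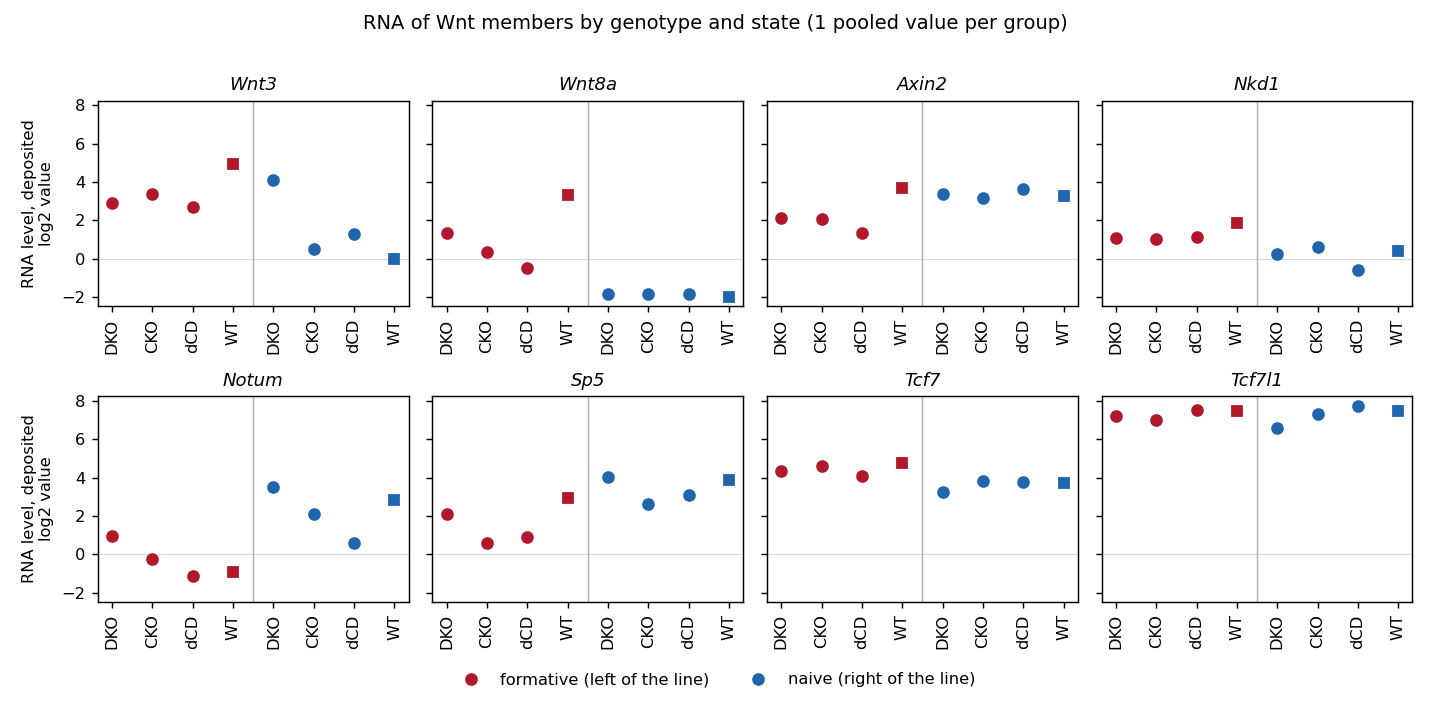
Deposited RNA level (log2 value) of 8 Wnt genes in DKO, CKO, dCD and WT cells, formative left of the line and naive right of it, with 1 pooled value per group and no error. Wnt3 stands at 4.12 in naive DKO cells against 0.02 in naive WT cells, and formative WT cells are highest for Wnt3, Wnt8a, Axin2, Nkd1, Sp5 and Tcf7 among the 4 formative genotypes.

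Comparisons with DKO cells have pooled values only. A region was called at an absolute log2 difference of at least 1, which is 2-fold, among regions above 0 in all 4 groups, which were 117 of the 132 and 105643 of all regions. The remaining 15 of 132, against 6494 of 112137 regions in all, were at 0 in some group and stand outside these counts. Only some of the 15 are described below. In formative cells, more Wnt regions were at least 2-fold lower than higher in H3K27ac without MLL3 and MLL4. Of 117 regions 57 were at least 2-fold lower in formative DKO than in formative WT cells, against 39.3% of all regions. At least 2-fold higher were 7, against 11.2%. The median difference was -0.95, against -0.63 over all regions. In naive cells 29 were at least 2-fold higher in DKO than in WT cells, against 19.2%, and 28 at least 2-fold lower, against 26.3%, with medians of -0.17 and -0.10. Scaling between groups is not stated. Centring each group on its own median over all regions would add 0.77 to each formative and 0.29 to each naive difference, and centring on promoters would take 0.63 and 0.57 from them. The formative split of higher and lower regions became 18 and 35 with the first and 4 and 80 with the second, and the naive split 35 and 20 or 23 and 50.

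**Figure D2:**
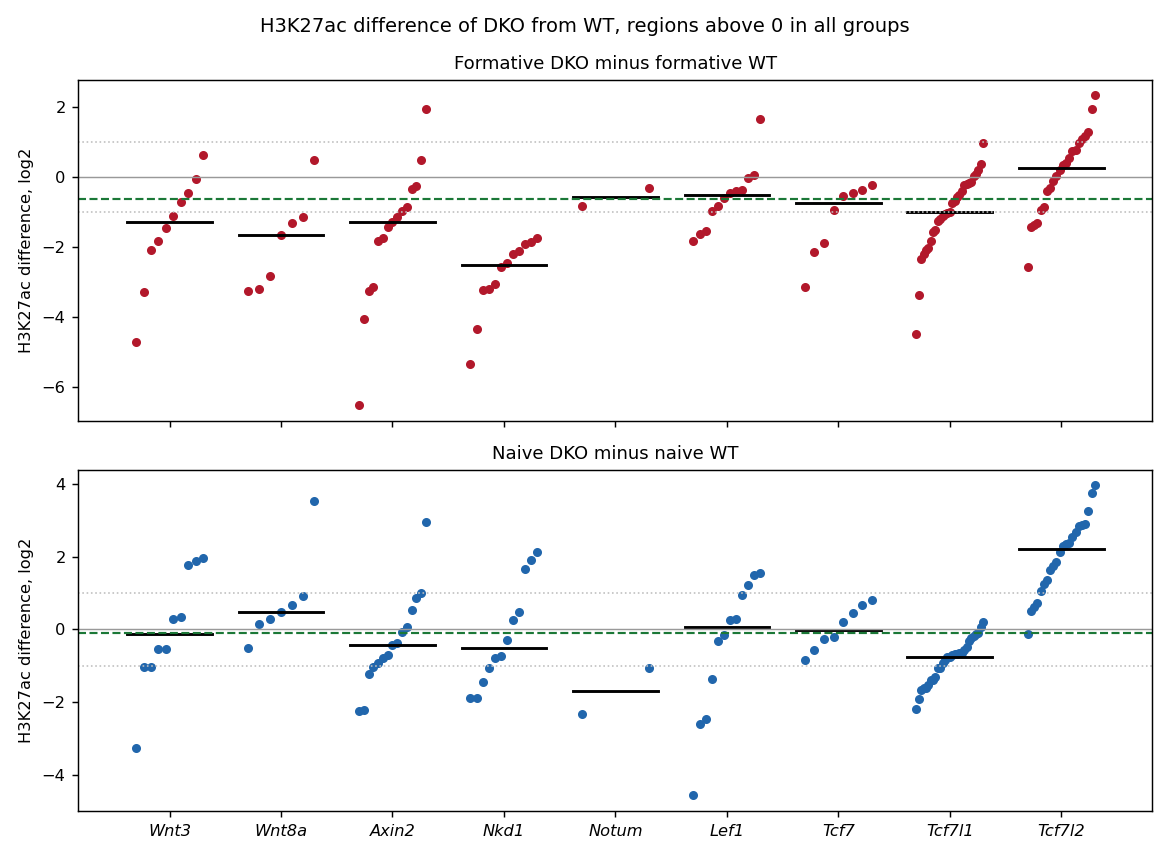
H3K27ac difference (log2) of DKO from WT cells for each region above 0 in all groups, formative above and naive below. Each point is a region, black bars are gene medians, the dashed line is the median over all regions and dotted lines mark 2-fold. All 12 Nkd1 regions are at least 2-fold lower in formative DKO cells, and 18 of 22 Tcf7l2 regions are at least 2-fold higher in naive DKO cells.

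All 5 regions within Wnt3 were at least 2-fold lower in formative DKO than in formative WT cells, and Wnt3 RNA was lower in formative DKO but higher in naive DKO cells. The region with the smallest p, upstream of the gene at chr11:103769350-103772894, had levels of 6.18 in formative DKO, 6.88 in formative WT, 4.91 in naive DKO and 4.62 in naive WT cells. Both formative groups were above both naive ones there, and it rose by 2.22 in WT cells (the authors' deposited table, adjusted p = 5.48e-08 by DiffBind). The promoter region, chr11:103773465-103774421, had 7.72 in formative DKO against 9.10 in formative WT cells, and was listed at 0 in naive DKO against 6.53 in naive WT cells. Its difference of 2.60 between the states of WT cells was not called (the authors' deposited table, adjusted p = 0.058 by DiffBind). An intronic region 11239 bases into the gene had 4.77 in formative DKO against 8.04 in formative WT, and 0.30 in naive DKO against 3.58 in naive WT cells. Another, 38880 bases in, had 4.38 in formative DKO against 9.09 in formative WT, and 7.03 in naive DKO against 6.68 in naive WT cells. Here formative DKO cells stood lowest of the 4 groups. The region 30658 bases in was listed at 0 in formative DKO against 8.57 in formative WT cells, but had 7.83 in naive DKO against 0.62 in naive WT cells. Over the 10 regions above 0 the median difference of DKO from WT was -1.26 in formative and -0.13 in naive cells, the second becoming 0.16 when groups were centred on their medians. In the 3 of these within Wnt3 it was -3.27 in formative cells, and in the 5 within the neighbouring gene Nsf it was -0.44.

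Wnt3 RNA stood at 2.91 in formative DKO, 3.38 in formative CKO and 2.68 in formative dCD cells, against 4.96 in formative WT cells. In naive cells it was 4.12 in DKO, 0.49 in CKO and 1.30 in dCD, against 0.02 in WT. The naive DKO level was thus 4.11 above naive WT, while the promoter region was the one listed at 0 in naive DKO cells. The next gene Nsf was 8.04 in naive DKO against 6.51 in naive WT cells and Arf2, beyond it, 5.88 against 4.94, so RNA of both neighbours with values was higher there too. The RefSeq end of Wnt9b, at chromosome 11 position 103775272, lies past the start of Wnt3 at 103774175, and the sources used here do not say whether reads were counted by strand. Over the 8 RNA groups the genes with levels most like Wnt3 were Acsl5 (Pearson r = 0.96), Sv2c (0.94) and Slc27a1 (0.94), among 2631 genes with a range of at least 2 on the log2 scale. The 8 groups share libraries between genes, and these correlations are descriptions.

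Wnt8a, a ligand of the early primitive streak, was lower in formative DKO cells both in H3K27ac around the gene and in RNA. The region 8090 bases from the TSS, chr18:34550036-34550799, had 6.74 in formative DKO, 9.55 in formative WT, 7.78 in naive DKO and 4.25 in naive WT cells. Naive WT cells stood apart as lowest and formative WT as highest, and the region rose by 5.39 in WT cells (the authors' deposited table, adjusted p = 8.02e-08 by DiffBind). The region 6986 bases from the TSS had 6.01 in formative DKO against 9.26 in formative WT cells, and 7.06 in naive DKO against 6.77 in naive WT cells. By contrast the promoter region had 8.34 in formative DKO against 7.84 in formative WT cells. Of the 7 regions 6 were at least 2-fold lower in formative DKO cells, against 39.3% of all regions. The promoter was the exception at 0.51. The naive median was 0.46, but -0.11 when groups were centred on promoters. RNA was 1.36 in formative DKO, 0.34 in formative CKO and -0.47 in formative dCD cells, against 3.34 in formative WT cells. In naive cells all 4 genotypes lay between -1.97 and -1.82, near the lowest recorded value.

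Axin2 is a scaffold of the destruction complex that is itself induced by the pathway. In formative DKO cells 9 of its 15 regions were at least 2-fold lower in H3K27ac, against 39.3% of all regions. The region over its start, chr11:108919906-108922519, which holds 3 of the CTTTGAT matches, differed by less than 2-fold: 7.41 in formative DKO against 7.75 in formative WT, and 6.92 in naive DKO against 7.86 in naive WT cells. The intronic region 8306 bases in, which holds 3 more, had 5.24 against 6.64 and 5.72 against 5.79. It was the only Axin2 region to rise in WT cells, by 0.82 (the authors' deposited table, adjusted p = 0.0229 by DiffBind). The largest formative difference was at the intronic region 17931 bases in, with 3.56 in formative DKO against 10.08 in formative WT cells. In the other direction, the region 21774 bases upstream had 10.05 against 8.09 in formative and 8.88 against 5.94 in naive cells, again DKO against WT. The gene medians of DKO from WT were -1.28 in formative and -0.43 in naive cells. Axin2 RNA was at least 2-fold lower in each mutant genotype in formative cells, at 2.14 in DKO, 2.07 in CKO and 1.35 in dCD, against 3.67 in WT. In naive cells the same groups were at 3.36, 3.18 and 3.63, against 3.27 in WT.

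Nkd1, which binds Dishevelled and dampens the signal, had H3K27ac lower in formative DKO cells at every region. All 12 regions above 0 were at least 2-fold lower, against 39.3% of all regions, with differences from -5.32 to -1.73 and a median of -2.50. The other 6, each at 0 in some group, were lower as well. The median over chromosome 8 was -1.15 and that of the 218 other regions within 1 Mb was -1.22, so that the neighbourhood was also lower than the median of all regions. The region with the smallest p among these 12, chr8:88440988-88442610, had 3.25 in formative DKO, 7.57 in formative WT, 4.86 in naive DKO and 2.74 in naive WT cells. It rose by 5.10 in WT cells (the authors' deposited table, adjusted p = 2.49e-07 by DiffBind). The intronic region 12793 bases in, shown above with 1 match, had 2.96 in formative DKO against 8.28 in formative WT, and 5.23 in naive DKO against 5.97 in naive WT cells. The region 43622 bases in, also shown above, had 5.66 against 7.85 and 4.00 against 4.79 in the same order, and rose by 2.97 (the authors' deposited table, adjusted p = 0.00217 by DiffBind). Regions 15325 and 37565 bases in were listed at 0 in formative DKO against 8.39 and 8.72 in formative WT cells. In all 12 regions formative WT was the highest of the 4 groups, as it was in 47.9% of all regions. Naive DKO cells differed less, with a median of -0.52 and with 3 regions at least 2-fold higher and 4 lower. Nkd1 RNA was 1.11 in formative DKO, 1.04 in formative CKO and 1.14 in formative dCD cells, against 1.87 in formative WT cells, which is less than 2-fold in each.

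Notum went the other way between states. Its upstream region, chr11:120662521-120669710, had 3.75 in formative DKO, 4.06 in formative WT, 4.99 in naive DKO and 7.32 in naive WT cells. Naive WT cells stood alone as high, and the region fell by 3.34 in WT cells (the authors' deposited table, adjusted p = 4.66e-23 by DiffBind). The region over the start had 6.14 in formative DKO, 6.96 in formative WT, 7.07 in naive DKO and 8.14 in naive WT cells, and fell by 1.13 (the authors' deposited table, adjusted p = 0.022 by DiffBind). Both were at least 2-fold lower in naive DKO than in naive WT cells. In formative cells the median was -0.57, but 0.20 when groups were centred on their medians. RNA was not lower in DKO cells: it was 0.94 in formative DKO against -0.91 in formative WT, and 3.49 in naive DKO against 2.84 in naive WT cells. In dCD cells it was -1.14 in the formative and 0.59 in the naive state.

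Sp5 had a single region, within an intron of Myo3b. Its levels were 0 in formative DKO, 10.72 in formative WT, 0 in naive DKO and 4.25 in naive WT cells. It rose by 5.72 in WT cells (the authors' deposited table, adjusted p = 0.000855 by DiffBind) and was listed at 0 in both DKO groups. Its H3K4me1 was above 0 in all groups, at 5.54 in formative DKO against 7.08 in formative WT, and 6.51 in naive DKO against 7.23 in naive WT cells. Sp5 RNA was 2.12 in formative DKO, 0.59 in formative CKO and 0.89 in formative dCD cells, against 2.92 in formative WT cells. In naive cells it was 4.01, 2.65 and 3.11, against 3.86 in naive WT, so CKO and dCD cells were lower than WT in both states and DKO cells in the formative state.

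Lef1, a factor that activates with beta-catenin, was higher in the formative state both with and without MLL3 and MLL4. In WT cells 10 of its regions above 0 rose, with a median of 2.54, and over the same regions the median in DKO cells was 1.62. The intronic region with the smallest p, chr3:131172337-131174607, had 6.77 in formative DKO, 7.21 in formative WT, 5.72 in naive DKO and 4.23 in naive WT cells. It rose by 3.61 in WT cells (the authors' deposited table, adjusted p = 9.26e-11 by DiffBind). The region 27812 bases in had 7.19 in formative DKO against 8.14 in formative WT, and 0.41 in naive DKO against 4.99 in naive WT cells. The exonic region 71941 bases in had 6.44 against 8.27 and 3.80 against 6.28. Both show formative DKO cells well above naive DKO cells. The region 76391 bases in was listed at 0 in both naive groups and had 7.21 in formative DKO against 10.24 in formative WT cells. The median difference of DKO from WT was -0.51 in formative cells, but 0.25 when groups were centred on their medians, and 0.05 in naive cells, but -0.52 when centred on promoters. Of the 12 regions above 0, 3 were at least 2-fold lower in formative DKO cells, against 39.3% of all regions.

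Tcf7 had its 4 risen regions side by side within the gene. The widest, chr11:52271942-52277348, had 4.88 in formative DKO, 6.76 in formative WT, 4.95 in naive DKO and 5.17 in naive WT cells, and rose by 1.60 in WT cells (the authors' deposited table, adjusted p = 8.82e-05 by DiffBind). Formative WT stood apart there from the other 3 groups. Upstream, the region 16399 bases before the TSS had 4.53 in formative DKO against 7.67 in formative WT, and 6.25 in naive DKO against 6.52 in naive WT cells. All 8 regions above 0 were lower in formative DKO cells, 3 of them at least 2-fold, against 39.3% of all regions. The Tcf7 median was -0.73 in formative cells, where that of all regions was -0.63, and -0.01 in naive cells. With groups centred on their medians the 2 Tcf7 medians became 0.03 and 0.28. Tcf7 RNA was 4.36 in formative DKO, 4.62 in formative CKO and 4.09 in formative dCD cells, against 4.79 in formative WT cells. It was 3.23, 3.83 and 3.78 in naive cells, against 3.72 in naive WT.

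Tcf7l1 was the one factor whose called regions mostly fell on exit from the naive state. Its intronic region with the smallest p, chr6:72767052-72770742, had 5.89 in formative DKO, 5.50 in formative WT, 6.47 in naive DKO and 7.86 in naive WT cells. It fell by 2.34 in WT cells (the authors' deposited table, adjusted p = 2.77e-18 by DiffBind). The region over the start, chr6:72785745-72791156, had 5.80 in formative DKO, 6.03 in formative WT, 6.61 in naive DKO and 7.68 in naive WT cells, and fell by 1.60 (the authors' deposited table, adjusted p = 1.26e-07 by DiffBind). A region 6130 bases upstream went the other way, with 6.80, 8.83, 5.48 and 7.67 in the same order, and rose by 1.26 (the authors' deposited table, adjusted p = 0.000199 by DiffBind). The region 11937 bases upstream had 3.95 in formative DKO against 8.44 in formative WT, and 7.02 in naive DKO against 8.56 in naive WT cells. In naive DKO cells 27 of 29 regions were below naive WT, a count of signs with no share over all regions beside it. At least 2-fold lower were 11, against 26.3% of all regions, and the median was -0.76. In formative DKO cells 14 were at least 2-fold lower, against 39.3% of all regions, with a median of -0.98. The medians over chromosome 6 were -0.48 and -1.01 in the same order, and those over all regions -0.10 and -0.63. With groups centred on their medians those of Tcf7l1 became -0.47 and -0.22. RNA differed by less than 2-fold in every genotype: it was 7.19 in formative DKO, 6.99 in formative CKO and 7.52 in formative dCD cells, against 7.48 in formative WT cells, and 6.59, 7.33 and 7.75 in naive cells, against 7.46 in naive WT cells.

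Tcf7l2, the fourth factor of the family, had regions that were mostly higher in naive DKO cells. Of its 22 regions above 0, 18 were at least 2-fold higher in naive DKO than in naive WT cells and none was at least 2-fold lower, with a median of 2.20. In formative cells 5 were at least 2-fold higher and 4 lower, with a median of 0.28, but -0.35 when groups were centred on promoters. The promoter region, chr19:55741233-55742004, had 10.28 in formative DKO, 9.52 in formative WT, 10.23 in naive DKO and 7.69 in naive WT cells. Naive WT was the low group, and the region rose by 1.56 in WT cells (the authors' deposited table, adjusted p = 0.0427 by DiffBind). The intronic region chr19:55831022-55831542 had 8.55 in formative DKO, 9.48 in formative WT, 9.17 in naive DKO and 5.22 in naive WT cells, and rose by 4.34 (the authors' deposited table, adjusted p = 0.00417 by DiffBind). The intronic region that holds the match shown above, chr19:55867735-55868595, had 10.89 against 8.55 in formative and 11.07 against 7.81 in naive cells, DKO against WT. Regions 19707 bases before and 8950 bases after the internal TSS were listed at 0 in naive WT and had 9.60 and 7.38 in naive DKO cells. The table measures distance from 2 start sites of this gene. Naive WT was the lowest of the 4 groups at 15 of the 22 regions, against 28.8% of all regions. Naive DKO was above formative WT at 12 of the 22, against 33.2% of all regions. The median over chromosome 19 was 0.15 in naive cells, and over the 71 other regions within 1 Mb it was 0.57, with 39.4% at least 2-fold higher. H3K4me1 of the 24 regions was not called higher or lower in naive DKO cells at any of them. Without RNA values in the table, the transcript was not analysed here.

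**Figure D3:**
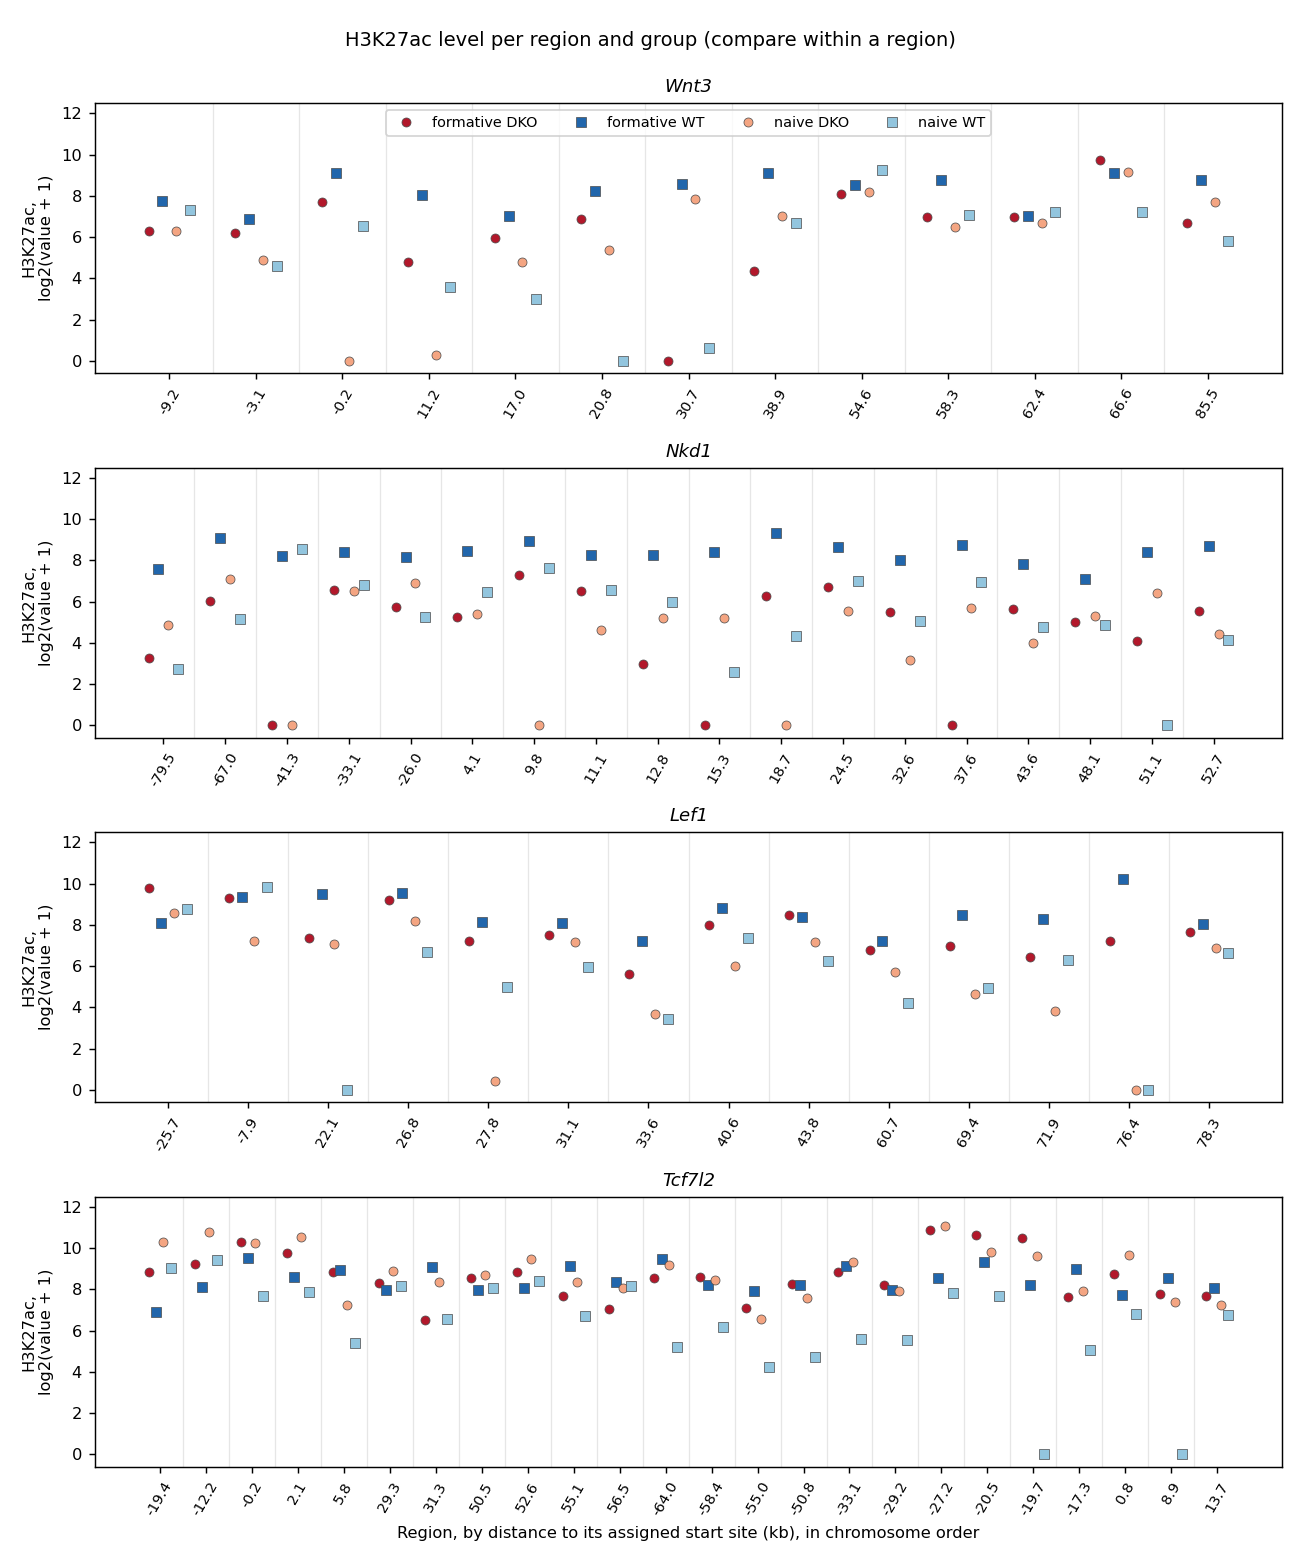
H3K27ac level, log2(value + 1), of every region of Wnt3, Nkd1, Lef1 and Tcf7l2 in the 4 groups, by distance to the assigned start site and in chromosome order. Levels compare within a column only. Formative WT squares stand above the formative DKO circles at all Nkd1 regions, and naive WT squares stand lowest at most Tcf7l2 regions.

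The change from naive to formative was set side by side in the genotypes. In DKO cells 25 of 117 regions were at least 2-fold higher in the formative state, against 16.6% of all regions, and 28 at least 2-fold lower, against 17.9%, with a median of -0.20. The change in DKO minus the change in WT cells was -1 or below at 55 regions, against 36.3% of all, and 1 or above at 9, against 19.5%. These became 44 and 19 with groups centred on their medians. Over the 40 regions above 0 that rose in WT cells, the median change was 0.71 in DKO and 2.69 in WT cells. Over all 19184 such regions the medians were 0.31 and 2.59. These regions were chosen on the WT libraries, which raises their WT change. By gene the DKO and WT medians were 1.62 and 2.54 at 10 Lef1 regions, 1.21 and 3.50 at 4 Wnt3 regions, 1.11 and 3.06 at 7 Nkd1 regions, 0.25 and 1.30 at 4 Tcf7 regions, 1.05 and 1.34 at 3 Tcf7l1 regions, -0.48 and 0.85 at 1 Axin2 region, -0.14 and 3.55 at 8 Tcf7l2 regions and -1.04 and 2.50 at 3 Wnt8a regions. At Wnt8a the formative DKO level was below the naive DKO level in 2 of 3 regions by at least 2-fold. Over the 13 regions that fell in WT cells the medians were -0.93 in DKO and -1.65 in WT cells.

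**Figure D4:**
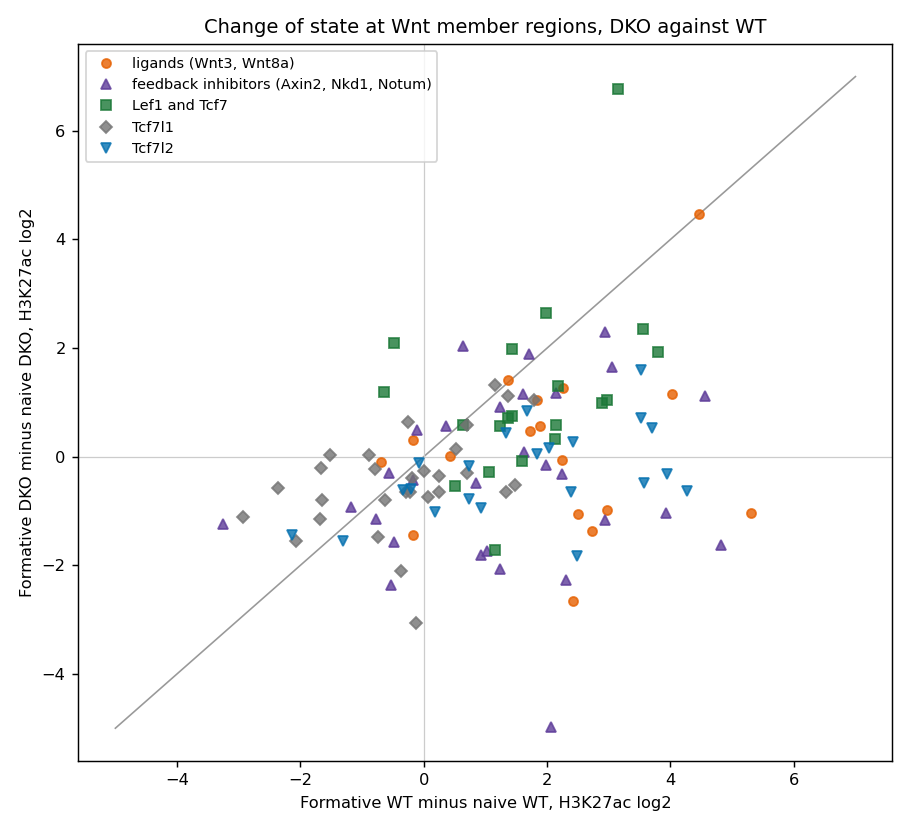
H3K27ac change from naive to formative (log2) in DKO cells against that in WT cells, for the 117 regions above 0 in all groups, with a line of equal change. Most regions with a change above 2 in WT cells lie below the line, but picking regions by a large WT change itself favours that side. Of the 40 regions that rose in WT cells by DiffBind, 35 had a smaller change in DKO cells. Over all 19184 such regions the share was 95.2%. The Lef1 region 27812 bases in lies far above the line, at 6.78 in DKO and 3.16 in WT cells. Its naive DKO level was 0.41, close to the 0 at which regions were left out.

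RNA gave the state change a further set of genotypes. In DKO cells 2 of 8 genes, Wnt8a and Tcf7, were at least 2-fold higher in the formative state, against 18.0% of genes, and 4, Wnt3, Axin2, Notum and Sp5, at least 2-fold lower, against 5.15%. For Wnt3 the difference of states was -1.21 in DKO, 2.89 in CKO and 1.38 in dCD cells, against 4.94 in WT cells. For Axin2 it was -1.22, -1.12 and -2.28, against 0.40 in WT cells, and for Sp5 -1.89, -2.06 and -2.22, against -0.94 in WT cells. Wnt8a was higher in the formative state in all genotypes, by 3.19, 2.18 and 1.35, against 5.32 in WT cells.

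Each mutant genotype was compared with WT within a state. In formative cells Wnt3, Wnt8a and Axin2 were at least 2-fold lower than WT in DKO, CKO and dCD cells, and Sp5 in CKO and dCD cells. That made 3, 4 and 4 of 8 genes, against 5.05%, 4.78% and 3.62% of all genes in the same order. Notum alone was at least 2-fold higher, in DKO cells, against 5.87% of all genes, and no gene was in CKO or dCD cells, against 3.64% and 4.72%. Differences were below 0 for 7 of the 8 genes in each genotype, and the share of all genes below 0 was not counted. The median difference of the 8 genes was -0.78 in DKO, -1.20 in CKO and -1.38 in dCD cells. Over all 9781 genes it was 0.06, 0.003 and 0.01 in the same order. The 3 comparisons share the WT libraries. In naive cells Wnt3 was at least 2-fold higher in DKO and in dCD cells, against 8.54% and 8.05% of all genes, and no gene was in CKO cells, against 3.85%. Sp5 was at least 2-fold lower in CKO and Notum in dCD cells, against 4.80% and 5.19%, and no gene was in DKO cells, against 11.2%.

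H3K4me1 differed less than H3K27ac. In formative cells 18 of 132 regions were at least 2-fold lower in DKO than in WT cells, against 16.0% of all regions, and 10 at least 2-fold higher, against 10.5%. In naive cells 11 were lower, against 18.7%, and 3 higher, against 4.99%. The shares of the Wnt regions were 13.6% and 7.58% in formative cells and 8.33% and 2.27% in naive cells, in the same order. With groups centred on their medians the naive split became 5 lower and 12 higher. By gene, formative calls were 5 lower at Nkd1, 4 lower and 1 higher at Wnt3, 3 lower at Lef1, 2 lower and 3 higher at Axin2, 2 lower at Wnt8a, and 5 higher at Tcf7l2. At the Wnt3 promoter H3K4me1 was higher in DKO cells, with 8.54 in formative DKO against 7.24 in formative WT, and 8.62 in naive DKO against 7.59 in naive WT cells, while H3K27ac there was lower in both states. At the Nkd1 region chr8:88440988-88442610 both marks were lower in formative DKO cells, H3K4me1 with 4.84 against 7.01. Of 16 regions with H3K4me1 at least 2-fold lower in formative DKO cells, 13 had H3K27ac at least 2-fold lower too, as had 44 of the 101 others. Over all regions these shares were 57.1% and 36.0%. Across the 117 regions the differences of the marks had a Pearson r of 0.26 in formative and 0.27 in naive cells, and regions are not independent replicates.

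**Figure D5:**
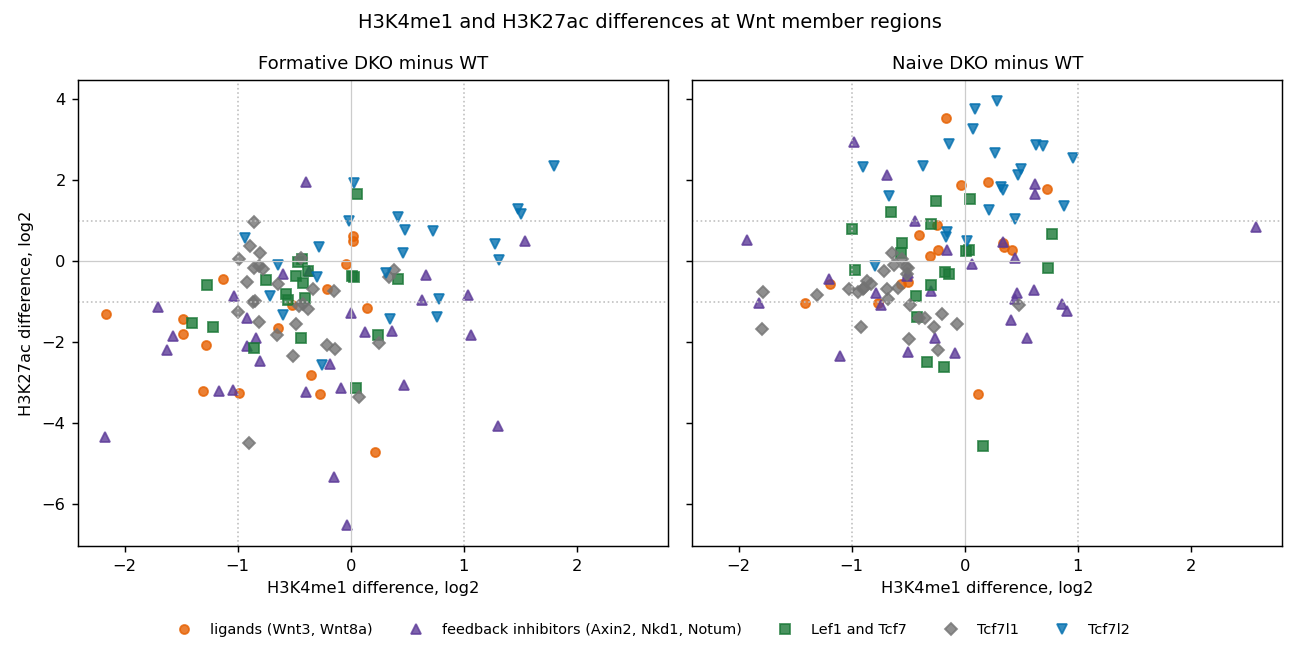
H3K27ac difference against H3K4me1 difference (log2, DKO minus WT) at 117 regions, formative left and naive right, with dotted lines at 2-fold. In formative cells 44 regions with H3K27ac at least 2-fold lower lie where H3K4me1 was not 2-fold lower, and in naive cells Tcf7l2 points lie high in H3K27ac with H3K4me1 differences between -1 and 1.

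The rest of the pathway was counted over 80 further genes in 6 lists, of which 74 had regions, 504 in all. In WT cells 112 of these regions rose and 72 fell (DiffBind adjusted p under 0.05, the authors' deposited table). These shares, 22.2% and 14.3%, were near the 20.8% and 15.8% of all regions. At 30 genes regions only rose, at 15 they only fell and at 13 both occurred. Ligands and their secretion factors had 31 regions that rose and 6 that fell, while the destruction complex and beta-catenin had 14 and 21. In formative cells the gene median of H3K27ac was at least 2-fold lower in DKO cells for 30 of 72 genes and higher for 4. These were 41.7% and 5.56%, against 37.4% and 7.54% of all 18201 genes with a region above 0, so the pathway was near the background there too. In RNA, formative DKO cells were at least 2-fold lower for 8 of 49 genes and higher for 2, against 5.05% and 5.87% of all genes. The largest were T, a primitive streak factor, at -0.31 in formative DKO against 2.92 in formative WT cells, and Frzb, a secreted Wnt antagonist, at 0.37 against 2.80. The genes higher were Fzd1, a receptor, at 2.16 against 0.55, and Wnt5a, a ligand of the branch that does not use beta-catenin, at 1.36 against -0.21. In naive DKO cells 8 of the 49 were higher by 2-fold or more and 5 were lower, against 8.54% and 11.2% of all genes. The largest were Dkk1, an inhibitor that binds LRP co-receptors, at 3.87 in naive DKO against -1.16 in naive WT cells, and Wls, the carrier of Wnt ligands out of the cell, at 6.92 against 4.07. The largest lower ones were Sfrp4, a secreted inhibitor, at -0.80 against 1.65, and Sfrp5, of the same family, at -0.34 against 1.43.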

How the data were processed

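Mouse embryonic stem cell H3K27ac was profiled by CUT&Tag in 8 libraries. Per the submitters' processing notes the authors used Trim Galore, Bowtie2, SEACR, DiffBind and deepTools with the mm10 build, with no versions given, and how groups were scaled to each other is not stated. The deposited table holds log2 values per region for H3K27ac and H3K4me1, log2 RNA levels per gene, and DiffBind log2 folds with adjusted p-values. All levels are the authors' pooled group values, so no replicate check of DKO comparisons exists, depth is unknown and 0 per-sample columns were left unused. H3K4me1 and RNA columns are the authors' deposited values from libraries outside these samples.

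Differences were computed with pandas 2.3.3 and numpy 2.4.6 under Python 3.11.15 and checked on simulated data. Regions at 0 in any of the 4 groups, 6494 of 112137, were left out of 2-fold counts (an absolute log2 difference of at least 1) of H3K27ac. DiffBind calls used an adjusted p under 0.05 over all regions. Regions named for a gene were its promoter region and those with the smallest DiffBind p, the largest naive and the largest formative difference of DKO from WT among regions above 0. Other regions were chosen after their values were seen, as were the comparisons by place, by neighbourhood within 1 Mb and of levels across states. The Wnt genes and all gene lists were chosen with earlier results of these data known. Alternatives were other centrings, a reach of 50 kb, a filter at the lower quartile of signal and a 4-fold threshold. Signal in that filter was the mean log2 level of the 4 groups plus 2 times the log2 width. Narrow regions were therefore left out more readily. No sequence of Wnt8a is printed.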

Additional observations from a re-analysis of the deposited data

How the results depend on the processing

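Of 70 alternative counts, 43 were within 1.5 times the value reported. Which of higher and lower was more common switched with the centring for naive H3K4me1, for the state change of H3K27ac in DKO cells (27 higher and 23 lower when centred on promoters) and for naive H3K27ac (23 higher when centred on promoters). Centring groups on their medians gave 18 regions higher and 35 lower in formative DKO cells, 19 with a more positive state change in DKO than in WT cells, and 12 higher and 5 lower for H3K4me1 in naive DKO cells. In RNA it gave 1 gene higher in the formative state in DKO cells, 2 genes lower in the formative state in WT cells and 2 lower in naive dCD cells. Centring on promoters gave 4 higher in formative DKO and 50 lower in naive DKO cells. A reach of 50 kb gave 18 higher in naive DKO cells. Above the lower quartile of signal, which counted region width as well as level, 80 regions were left, of which 24 rose in WT cells. There 12 were higher and 13 lower in the formative state of DKO cells, 19 were higher and 14 lower in naive DKO cells, 28 were lower in formative DKO cells, and the state change was more positive at 5 and more negative at 29. At 4-fold these counts were 7, 7, 15, 8, 28, 3 and 29, with 1 higher in formative DKO cells. Of 27 gene medians 9 changed sign between centrings, among them naive Wnt3, Wnt8a, Lef1 and Tcf7, formative Notum, Lef1, Tcf7 and Tcf7l2, and the Nkd1 state change in DKO cells. The median formative differences of Wnt3, Wnt8a and Axin2 became -0.50, -0.87 and -0.52 when median-centred, and those of Nkd1 in formative and Tcf7l2 in naive cells stayed past 2-fold under both centrings, at -1.73 to -3.13 and 1.63 to 2.49. Other centrings of the authors' adjusted p and leaving out a replicate were not run, as the deposited columns are pooled. No paired analysis was possible because the columns carry no replicate numbers.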
